A study of Mus musculus with 9 samples.

Results

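Spon1, Slc35d3, Gadd45g and Btbd17 are 4 of the 23453 gene symbols counted by bulk RNA-seq in 9 libraries of mouse epiblast-like cells. They were chosen by their measured fold change between aEpiLCs and pEpiLCs, the anterior and posterior epiblast-like states. Among genes called lower in pEpiLCs, with a mean of at least 5 CPM (counts scaled to library size) and no overlap between the libraries of the states, they held ranks 2 to 5 by the size of the fold change. All 4 were highest in aEpiLCs, intermediate in EpiLCs and lowest in pEpiLCs, in every library. They differed in where the EpiLC level lay within that difference. Spon1 and Btbd17 were 6.90-fold and 8.02-fold higher in aEpiLCs than in EpiLCs and 4.25-fold and 3.02-fold lower in pEpiLCs. Slc35d3 and Gadd45g were only 1.75-fold and 1.35-fold higher in aEpiLCs, and 15.4-fold and 18.7-fold lower in pEpiLCs.

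EpiLCs model the formative epiblast just after implantation. Naive ESCs were kept for 48 h in N2B27 medium with 1% KSR (a serum replacement), Activin A and FGF2, and 3 libraries were made of the resulting EpiLCs. For aEpiLCs (3 libraries), EpiLCs spent a further 24 h in N2B27 with 1% KSR and no added factor. For pEpiLCs (3 libraries), they spent those 24 h in the same medium with Activin A at 20 ng/ml and CHIR99021 at 3 µM. None of the libraries is of EpiLCs kept in their own medium for the further 24 h, and both later media lacked FGF2. In a change from EpiLC, the effects of time and of FGF2 loss therefore cannot be told apart from that of the state. The cells are described as wild-type, and the sources used here name no cell line, batch or date for these libraries. Nothing says that replicates were separate cultures, so p-values measure only the spread between these libraries, which may be technical.

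Activin A acts through the receptors used by Nodal, and CHIR99021 inhibits GSK3 and so turns on WNT signalling. In the embryo, Nodal and WNT signals are strong in the posterior epiblast, where the primitive streak forms, and are held down anteriorly, where neural tissue arises. The 4 genes have no shared biochemical role. Spon1 encodes F-spondin, a secreted matrix protein with thrombospondin repeats, found in the floor plate of the neural tube, that guides axons. Btbd17 encodes a BTB domain protein related to the galectin-binding protein Lgals3bp. Slc35d3 encodes a member of the nucleotide sugar transporter family, needed for platelet dense granules and for trafficking of a dopamine receptor. Gadd45g encodes a small stress-inducible protein that binds the kinase Map3k4, Pcna and Cdk1, and is expressed in early neural precursors.

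Total counts lay between 20560564 and 23417917 per library, so that 3 counts, taken as the detection limit, equalled 0.130 to 0.143 CPM. Summed levels of 6 epiblast markers (Pou5f1, Fgf5, Dnmt3b, Otx2, Pou3f1 and Utf1) were 4499 to 4794 CPM in EpiLCs, 4124 to 4325 CPM in aEpiLCs and 1804 to 3065 CPM in pEpiLCs. In pEpiLCs 3 of the 6 were called lower than in EpiLCs, against 8.13% of all genes: Dnmt3b (2700 and 1245 CPM in EpiLCs and pEpiLCs), Utf1 (469 and 76.2 CPM) and Pou3f1 (205 and 32.2 CPM). Fgf5 was called higher (85.4 and 168 CPM), against 7.71%, and Pou5f1 (1129 and 955 CPM) and Otx2 (94.9 and 69.9 CPM) were not called. DESeq2 called 3 lower and 0 higher, and without pEpiLC replicate 1 edgeR called 2 lower and 1 higher. Those of 8 primitive streak markers were 6.56 to 8.93, 6.66 to 8.78 and 603 to 2537 CPM, with Evx1 and Gsc at 3 counts or fewer in each library of EpiLCs and aEpiLCs, as Mesp1 was in aEpiLCs. Those of 11 early neural plate markers were 199 to 232, 479 to 533 and 264 to 442 CPM. In aEpiLCs the sum was mostly that of Nes (311 CPM). Of the 6 tested markers 3 were called higher in aEpiLCs, against 7.25% of all genes, and Sox1 (1.21 CPM in EpiLCs and 0.968 CPM in aEpiLCs), Sox3 (45.5 and 49.7 CPM) and Sox2 (60.7 and 102 CPM) were not called. The difference of Sox2 was under the fold limit only (log2 difference 0.75, edgeR adjusted p = 2.5e-06). Nes (98.2 CPM in EpiLCs and 183 CPM in pEpiLCs) and Cdh2 (12.7 CPM, and 106 ± 147 CPM, SD, n = 3) carried the sum in pEpiLCs, where 4 of the 6 tested markers were called lower than in EpiLCs and 1 higher, against 8.13% and 7.71% of all genes. The 1 higher was Cdh2 (edgeR adjusted p = 0.0415), and DESeq2 called 4 lower and 0 higher. Sox2 fell from 60.7 to 23.5 CPM and Sox3 from 45.5 to 13.0 CPM. Six3 and Rax were at 3 counts or fewer in each EpiLC and pEpiLC library, as were Lhx5 in EpiLCs and Pax6 in pEpiLCs. Sums for 8 neuronal markers were 160 to 166, 232 to 258 and 184 to 222 CPM. Sums for 6 measured markers each of extraembryonic endoderm (13.9 to 14.2, 16.8 to 18.6 and 9.29 to 14.4 CPM) and of fibroblasts (22.2 to 24.3, 22.3 to 24.9 and 16.5 to 30.0 CPM) were low in every state. Replicate 1 of pEpiLC stood apart. It differed more than 4-fold from replicates 2 and 3 at 323 and 333 of 15797 genes, against 57 to 76 genes in every other pair of replicates, and its primitive streak sum of 2537 CPM was above the 612 and 603 CPM of the others. The part of these differences in cell makeup in the results was not tested.

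Spon1 (ENSMUSG00000038156.16, chr7:113765998-114043370, plus strand, GRCm38) spans 277373 bases and has 10382 bases of exon. It was at 8.36, 6.93 and 6.51 CPM in EpiLC replicates 1, 2 and 3. In aEpiLC replicates 1, 2 and 3 it was at 45.4, 59.7 and 45.3 CPM, and in pEpiLC replicates at 1.15, 2.78 and 1.20 CPM. The lowest aEpiLC library was thus 5.43-fold above the highest EpiLC library, and the lowest EpiLC library was 2.34-fold above the highest pEpiLC library. Means were 7.27 ± 0.967 CPM in EpiLCs, 50.1 ± 8.27 CPM in aEpiLCs and 1.71 ± 0.931 CPM in pEpiLCs (SD, n = 3). Spon1 rose from EpiLCs to aEpiLCs by 2.79 ± 0.13 on the log2 scale (SE, adjusted p = 5.16e-09, edgeR's quasi-likelihood test with Benjamini-Hochberg adjustment over 15301 genes). It fell by 2.06 ± 0.34 in pEpiLCs (adjusted p = 0.00296 over 15288 genes). The aEpiLC and pEpiLC libraries in these tests are those that chose the genes, so the p-values of Spon1 and of the other 3 genes below describe the fits and are not independent evidence of a change.

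Btbd17 (ENSMUSG00000000202.9, chr11:114791217-114795945, minus strand) had the same shape with a tighter EpiLC level. It was at 5.37, 5.47 and 5.32 CPM in EpiLC replicates 1, 2 and 3, at 37.1, 33.4 and 59.0 CPM in those of aEpiLC and at 1.38, 1.26 and 2.71 CPM in those of pEpiLC. Replicate 3 was the highest of its state in both aEpiLCs and pEpiLCs. Means were 5.39 ± 0.0772, 43.2 ± 13.9 and 1.79 ± 0.805 CPM (SD, n = 3). No libraries overlapped between states: the lowest aEpiLC library was 6.11-fold above the highest EpiLC library, and the lowest EpiLC library was 1.96-fold above the highest pEpiLC library. The log2 rise to aEpiLCs was 3.00 ± 0.19 (SE, adjusted p = 6.97e-08). In pEpiLCs Btbd17 fell by 1.57 ± 0.30 (SE, adjusted p = 0.00511).

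Slc35d3 (ENSMUSG00000050473.5, chr10:19847916-19851459, minus strand) was already well expressed in EpiLCs. It was at 27.8, 25.2 and 25.8 CPM in EpiLC replicates 1, 2 and 3, at 38.5, 50.4 and 49.3 CPM in aEpiLC and at 1.05, 2.17 and 1.89 CPM in pEpiLC. Means were 26.3 ± 1.33, 46.1 ± 6.61 and 1.70 ± 0.584 CPM (SD, n = 3). The lowest aEpiLC library was 1.38-fold above the highest EpiLC library, whereas the lowest EpiLC library was 11.6-fold above the highest pEpiLC library. The higher level in aEpiLCs, a log2 difference of 0.81 ± 0.10 (SE), had an adjusted p of 2.32e-05 but was short of the limit of 1 that a call required. In pEpiLCs Slc35d3 fell by 3.91 ± 0.23 (SE, adjusted p = 5.26e-05).

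Gadd45g (ENSMUSG00000021453.2, chr13:51846678-51848468, plus strand) had the smallest step between EpiLCs and aEpiLCs. It was at 21.2, 16.5 and 22.7 CPM in EpiLC replicates 1, 2 and 3, at 29.4, 25.0 and 27.0 CPM in aEpiLC and at 0.907, 1.13 and 1.20 CPM in pEpiLC. Means were 20.1 ± 3.28, 27.1 ± 2.18 and 1.08 ± 0.152 CPM (SD, n = 3). The lowest aEpiLC library was 1.10-fold above the highest EpiLC library. The log2 difference between aEpiLCs and EpiLCs was 0.43 ± 0.12 (SE, adjusted p = 0.00821) and no call was made. In pEpiLCs Gadd45g fell by 4.19 ± 0.20 (SE, adjusted p = 2.30e-05), and the lowest EpiLC library was 13.8-fold above the highest pEpiLC library.

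**Figure D1:**
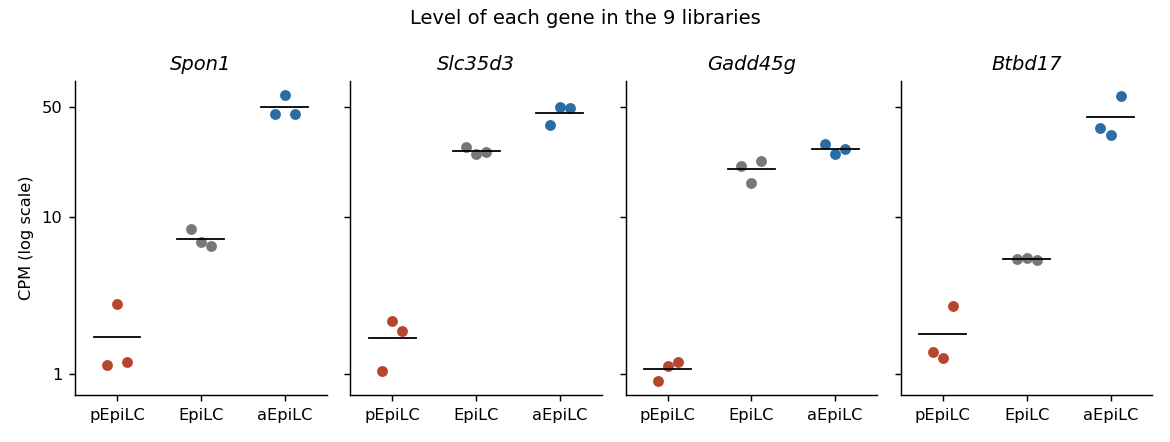
CPM (log scale) of the 4 genes in each library, with 1 point per library and a line at the mean of each state. In every panel the pEpiLC libraries lie lowest and the aEpiLC libraries highest, and the step from EpiLC to aEpiLC is large for Spon1 and Btbd17 and small for Slc35d3 and Gadd45g.

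The lowest levels of all 4 genes were above the detection limit. In pEpiLCs the rounded counts were 24 to 64 for Spon1, 22 to 50 for Slc35d3, 19 to 26 for Gadd45g and 29 to 59 for Btbd17. The SE of the log2 differences from EpiLC were 0.20 to 0.34 in pEpiLCs and 0.10 to 0.19 in aEpiLCs. In bulk libraries, fewer cells that express a gene and less RNA per cell cannot be told apart. The pEpiLC library that stood apart, replicate 1, was the lowest of its state for Spon1, Slc35d3 and Gadd45g, and not for Btbd17. With that library left out, the log2 differences between pEpiLCs and EpiLCs were -1.83 for Spon1, -3.66 for Slc35d3, -4.08 for Gadd45g and -1.42 for Btbd17, each still called, with edgeR adjusted p of 4.84e-05, 4.82e-11, 6.77e-10 and 0.000349.

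Across all genes tested, 7.25% were called higher in aEpiLCs than in EpiLCs, and 2 of the 4 genes were among them. In pEpiLCs, 8.13% of genes were called lower than in EpiLCs, and all 4 genes were among them. The libraries of the states did not overlap for 56.3% of genes between aEpiLCs and EpiLCs and for 58.7% between pEpiLCs and EpiLCs, so a lack of overlap, which the 4 genes showed in each comparison, was common. The order of pEpiLC below EpiLC below aEpiLC in every library, which all 4 genes had, was found for 363 of 15797 genes (2.30%). Since the aEpiLC and pEpiLC libraries chose the 4 genes, and both comparisons use the same EpiLC libraries, these shares describe the genes and do not test them. By size, 54 genes had a larger rise in aEpiLCs than Btbd17 and 69 a larger rise than Spon1. In pEpiLCs, 24 genes had a larger fall than Gadd45g and 33 than Slc35d3, against 402 for Spon1 and 716 for Btbd17.

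**Figure D2:**
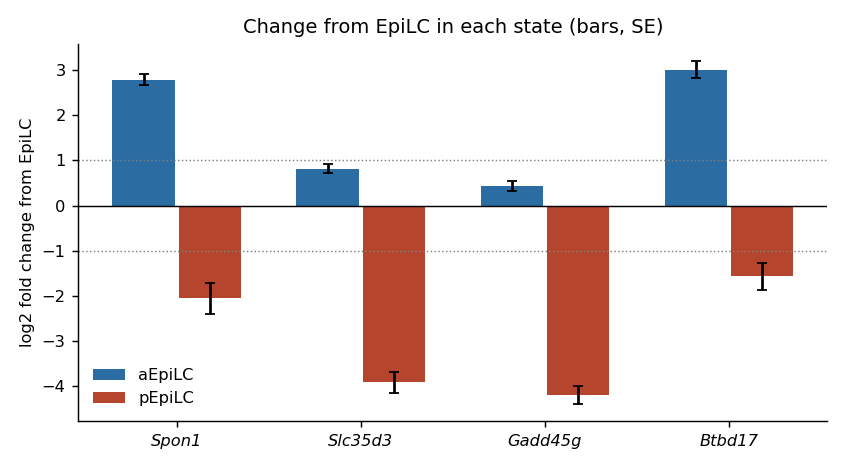
Log2 fold change from EpiLC in aEpiLCs and pEpiLCs for the 4 genes, as bars with their SE, and dotted lines at the limit of 1 in either direction. Spon1 and Btbd17 pass the limit both ways, while Slc35d3 (0.81) and Gadd45g (0.43) pass it only in pEpiLCs.

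Between pEpiLCs and aEpiLCs, the comparison that chose the genes, the log2 differences were -4.86 ± 0.32 for Spon1, -4.75 ± 0.24 for Slc35d3, -4.64 ± 0.16 for Gadd45g and -4.59 ± 0.35 for Btbd17 (SE). That comparison chose the genes, so these values are given as a description. Of all genes, 4.74% were called lower in pEpiLCs and 2.55% higher in that comparison, and 38.7% had no overlap between libraries. Stmn4, a stathmin of neurons that binds tubulin, ranked first by the same rule (-5.23) and is not among the 4. Btbd17 was the last of the 4 by rank, and the next genes were Irs4, an adaptor of insulin signalling (-3.92), and the tau kinase gene Ttbk1 (-3.63).

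To split each difference, 1 fit to all 9 libraries was used, so that the rise from EpiLC to aEpiLC and the fall from EpiLC to pEpiLC add up to the whole. The rise was 57.4% of the log2 difference for Spon1 and 65.4% for Btbd17. It was 17.1% for Slc35d3 and 9.25% for Gadd45g. Each part includes any change with the further 24 h and the loss of FGF2 that both states share, which cannot be separated here. Taking 1 library of each state in all 27 combinations, the share ran from 46.7% to 72.6% for Spon1, from 55.9% to 78.4% for Btbd17, from 9.22% to 22.2% for Slc35d3 and from 2.97% to 18.4% for Gadd45g. The ranges of Spon1 and Btbd17 overlapped each other, as did those of Slc35d3 and Gadd45g, but neither range of the first pair met either range of the second. The shares without pEpiLC replicate 1 were 60.5%, 68.0%, 18.4% and 9.82% in the same order of Spon1, Btbd17, Slc35d3 and Gadd45g.

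The 721 genes called higher in aEpiLCs than in pEpiLCs gave the background for these shares. Measured as mean log2 CPM, the rise made up a median of 37.5% of their difference, with quartiles of 2.55% and 74.4%, and lay between 0 and 100% for 453 genes (62.8%). On that measure Spon1 (56.4%) and Btbd17 (64.4%) lay above 63.1% and 68.8% of those genes, and Slc35d3 (16.9%) and Gadd45g (9.65%) above 34.3% and 29.4%. None of the 4 lay outside the middle range between the quartiles. The number of such genes was 396, 334 and 382 without aEpiLC replicate 1, 2 and 3.

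**Figure D3:**
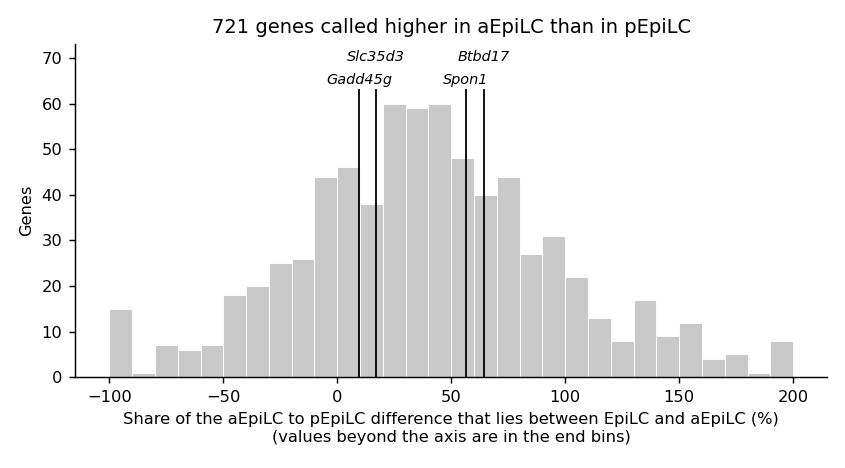
Number of genes, among the 721 called higher in aEpiLCs than in pEpiLCs, by the share of their log2 difference that lies between EpiLC and aEpiLC, with values beyond the axis placed in the end bins. Vertical lines mark the 4 genes: Gadd45g and Slc35d3 lie left of the median of 37.5%, and Spon1 and Btbd17 right of it.

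The profiles were compared over the 9 libraries, 6 of which chose the genes for their aEpiLC to pEpiLC difference, so likeness among them mostly follows where EpiLC lies, as the split does. Stmn4, Irs4 and Ttbk1, named here as near genes, held ranks 1, 6 and 7 by the rule that chose them. Likeness was measured as the root mean square difference of log2 CPM over the 9 libraries, after each gene was centred on its own mean, against 10727 other genes with a mean of at least 5 CPM. Slc35d3 and Gadd45g were each other's nearest gene (0.288). For Spon1 the nearest were Stmn4 (0.416), Irs4 (0.598) and Btbd17 (0.642). For Btbd17 they were Stmn4 (0.451), Spon1 (0.642) and Fgfr2, a receptor for fibroblast growth factors (0.655). After each other, Slc35d3 was nearest to Ttbk1 (0.666) and Irs4 (0.728), and Gadd45g to Ttbk1 (0.736) and to Rasgrp2, an activator of Rap GTPases (0.805). Rasgrp2 was lower in aEpiLCs (52.2 CPM) than in EpiLCs (80.1 CPM), the opposite step to that of Gadd45g. Gadd45g and Btbd17 were the least alike of the 4 (1.22), Gadd45g ranking 55 among the genes nearest to Btbd17. The libraries share their state and their depth, so likeness describes the profile over 3 states and no more. By Spearman's rank order in place of the distance, 2, 2, 0 and 1 of the 3 nearest genes of Spon1, Slc35d3, Gadd45g and Btbd17 were among the 100 with the highest coefficient.

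**Figure D4:**
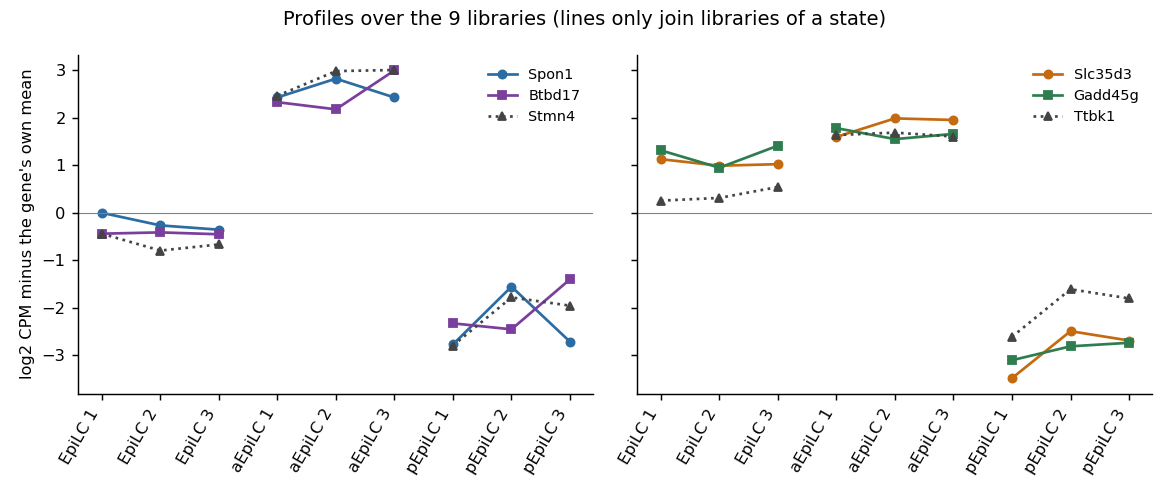
Log2 CPM of each gene minus its own mean, for the 9 libraries, with Spon1, Btbd17 and Stmn4 on the left and Slc35d3, Gadd45g and Ttbk1 on the right. In EpiLCs the left genes lie nearer to their pEpiLC values than Slc35d3 and Gadd45g do, and Slc35d3 and Gadd45g run closest together (0.288).

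The bases before the start site of the genes are shown because Slc35d3 and Gadd45g were so alike in profile. RefSeq promoters (GRCm38.p6) were matched by symbol for 3 of the 4 genes, Slc35d3, Gadd45g and Btbd17, and not for Spon1. The 250 bases before the start site are printed 5′ to 3′. For Btbd17 the 53 bases nearest the start are left out, since they lie in an exon of GENCODE vM21. Capitals mark every match, on either strand, to 8 motifs: TATAAA (found in core promoters), CCAAT (bound by NF-Y), CAGCTG (an E-box of the kind bound by proneural factors), CACGTG (an E-box bound by other basic helix-loop-helix factors), GTGGGAA (bound by RBPJ, the Notch effector), ATTTGCAT (octamer, bound by POU factors), CTTTGAT (bound by TCF/LEF factors) and ACAAAG (bound by SOX factors).
Slc35d3, chr10:19851460-19851709, minus strand: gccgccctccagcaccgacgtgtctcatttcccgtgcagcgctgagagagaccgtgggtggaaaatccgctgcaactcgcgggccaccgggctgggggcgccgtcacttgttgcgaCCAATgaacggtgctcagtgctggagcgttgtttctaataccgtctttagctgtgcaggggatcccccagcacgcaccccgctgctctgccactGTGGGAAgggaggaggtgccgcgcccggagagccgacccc
Gadd45g, chr13:51846425-51846674, plus strand: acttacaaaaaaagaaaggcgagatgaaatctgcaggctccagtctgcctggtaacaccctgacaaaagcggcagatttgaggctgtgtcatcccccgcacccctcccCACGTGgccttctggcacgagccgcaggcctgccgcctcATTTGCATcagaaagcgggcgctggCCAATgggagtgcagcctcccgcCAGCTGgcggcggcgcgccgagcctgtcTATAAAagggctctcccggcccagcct
Btbd17, chr11:114795946-114796142, minus strand: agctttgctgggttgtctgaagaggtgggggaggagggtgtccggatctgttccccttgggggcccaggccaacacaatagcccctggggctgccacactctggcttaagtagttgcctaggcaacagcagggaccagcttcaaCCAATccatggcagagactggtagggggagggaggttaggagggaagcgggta

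The motif matched in all 3 sequences was CCAAT, starting 134 bases before the start site in Slc35d3, 78 in Gadd45g and 106 in Btbd17. Of 32851 RefSeq promoters, 33.8% held it in the 250 bases before the start site, a window longer than the sequence printed for Btbd17. Slc35d3 also held GTGGGAA at 40 bases (5.42% of promoters). Gadd45g held CACGTG at 142 bases (6.02%), ATTTGCAT at 103 (1.60%), CAGCTG at 55 (13.0%) and TATAAA at 27 (12.4%). No match overlapped another. CTTTGAT (3.21% of promoters) and ACAAAG (16.5%) matched none of the 3. The motifs were picked after these sequences had been seen, and a match is a description of letters. GC content was 65.6% in Slc35d3, 62.0% in Gadd45g and 58.8% in Btbd17 over 250 bases, against a median of 52.4% over all promoters.

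Close relatives were compared per length, as CPM per kb of exon, with the exons of all annotated transcripts of a gene merged. Gadd45g stood at 17.2 ± 2.79 in EpiLCs, 23.1 ± 1.86 in aEpiLCs and 0.919 ± 0.129 in pEpiLCs (SD, n = 3). Gadd45a, a relative that binds the same kinase, stood at 14.4 ± 2.25, 12.6 ± 1.10 and 7.71 ± 1.97 CPM per kb, and Gadd45b, the other relative, at 1.28 ± 0.233, 2.99 ± 0.907 and 1.02 ± 0.335. By the means, Gadd45g was above Gadd45a in EpiLCs, but within their spread: in EpiLC replicate 2, Gadd45a was at 14.5 and Gadd45g at 14.0. Without the division by length the order of these means was reversed, with Gadd45a at 25.4 CPM and Gadd45g at 20.1 CPM. Gadd45g was the higher in each aEpiLC library and Gadd45a in each pEpiLC library. Slc35d3 stood at 9.99 ± 0.505, 17.5 ± 2.51 and 0.648 ± 0.222 CPM per kb. The nucleotide sugar transporter Slc35d1 stood at 2.12 ± 0.174, 2.58 ± 0.332 and 2.34 ± 0.115, and Slc35d2 at 0.368 ± 0.0612, 0.685 ± 0.275 and 0.483 ± 0.173. Neither was called in any comparison. Spon1 stood at 0.700 ± 0.0931, 4.83 ± 0.796 and 0.165 ± 0.0897 CPM per kb, while Spon2, the gene of another spondin, had at most 8 counts in any library. Btbd17 stood at 1.69 ± 0.0242, 13.5 ± 4.35 and 0.560 ± 0.253 CPM per kb.

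**Figure D5:**
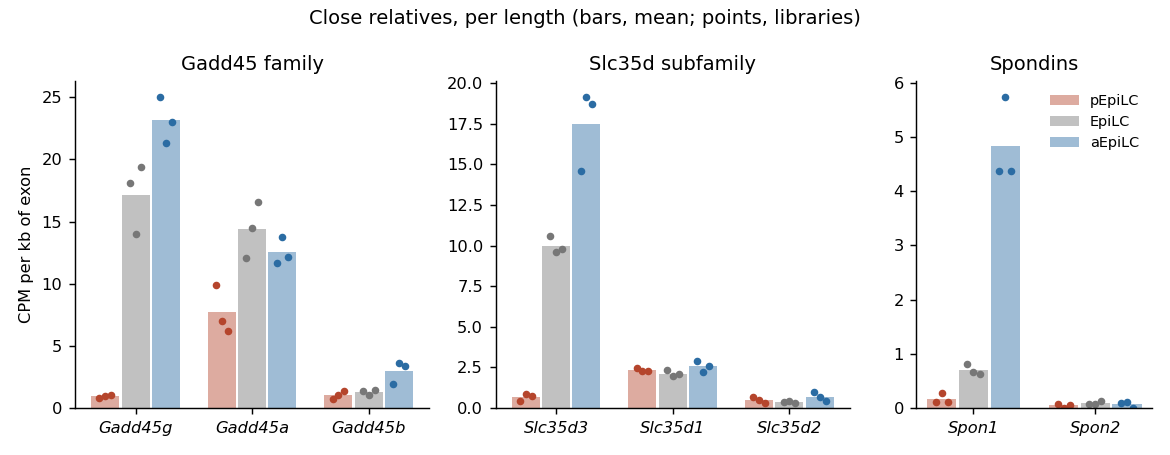
CPM per kb of exon in each state for Gadd45g, Slc35d3 and Spon1 beside their close relatives, with bars at the mean of 3 libraries and 1 point per library. Gadd45a is at 7.71 CPM per kb in pEpiLCs, where Gadd45g is at 0.919, and Slc35d1 lies between 2.12 and 2.58 in all states.

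Genes of the same families and pathways were counted from 7 lists that hold none of the 4 genes. Of 18 tested genes of proteins with thrombospondin repeats, 7 were called higher and 2 lower in aEpiLCs than in EpiLCs, against 7.25% and 5.24% of all genes. Their median log2 difference was 0.72, against 0.00 over all genes. Thbs1, the gene of thrombospondin 1, rose from 12.5 ± 1.54 to 78.1 ± 20.3 CPM (SD, n = 3, log2 difference 2.65 ± 0.17, SE, edgeR adjusted p = 6.21e-08). In pEpiLCs it was at 14.2 ± 10.5 CPM, and it was not called there. In pEpiLCs, 9 of 19 such genes were called higher than in EpiLCs, where 7.71% of all genes were, and 1 was lower (median 1.00, against 0.02 over all genes). That 1 gene was Sspo (SCO-spondin), at 2.64 ± 0.413 CPM in EpiLCs and 1.05 ± 0.156 CPM in pEpiLCs. Thsd4, Thsd7a, Unc5d and Adgrb3 were called higher in each state than in EpiLCs. The counts were 8 and 1 without pEpiLC replicate 1. Between pEpiLCs and aEpiLCs, 4 were called higher and 3 lower (Sspo, Thbs1 and Thsd1; median 0.15 against 0.01), against 2.55% and 4.74% of all genes, and without aEpiLC replicate 1, 2 or 3 the calls in either direction numbered 3, 2 and 4.

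F-spondin binds the amyloid precursor protein and ApoE receptors, and 8 genes of such partners and of Reelin signalling were tested. Only Reln was called higher in aEpiLCs (6.61 ± 0.624 CPM in EpiLCs, 16.4 ± 1.52 CPM in aEpiLCs) and none lower by edgeR or DESeq2, with 2 lower at an unadjusted p under 0.05 (median 0.45), against 7.25% and 5.24% of all genes. In pEpiLCs Reln (13.4 ± 5.01 CPM) and the receptor gene Lrp8 (41.7 ± 2.48 to 95.9 ± 22.2 CPM) rose and Lrp2 fell (266 ± 29.6 to 68.8 ± 43.7 CPM; median 0.29), against 7.71% and 8.13% of all genes. Lrp2, a large receptor of the same family, was at 496 ± 59.6 CPM in aEpiLCs and was not called there. Lrp8 was called higher and Lrp2 lower in pEpiLCs than in aEpiLCs (median -0.17 against 0.01), against 2.55% and 4.74% of all genes. Leaving out 1 library moved the number called to 2 in aEpiLCs (without aEpiLC replicate 2) and to 1 in pEpiLCs (without EpiLC replicate 3) or between pEpiLCs and aEpiLCs (without aEpiLC replicate 2). The counts against EpiLCs were 1 higher and 1 lower without pEpiLC replicate 1.

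Of 7 tested floor plate genes, where Spon1 is known in the embryo, 3 were called higher in aEpiLCs (Ntn1, Nkx2-9 and Lmx1b; median 0.86), against 7.25% and a median of 0.00 over all genes. In pEpiLCs 4 of 7 were called higher than in EpiLCs (Foxa2, Ntn1, Sulf1 and Nkx2-9; median 1.62), against 7.71% and 0.02. These 7 are not the same as in aEpiLCs. Foxa2, at 4 counts or fewer in each EpiLC library, passed the filter through its pEpiLC level. Lmx1b, at 0.486 CPM in EpiLCs and 0.105 CPM in pEpiLCs, did not pass it, so the count and median depend on the filter. No tested floor plate gene was called lower in either state by edgeR or DESeq2, and 0 and 1 were lower at an unadjusted p under 0.05, against 5.24% and 8.13% of all genes called lower. Foxa2, a factor of floor plate and definitive endoderm, was at 0.137 CPM in EpiLCs, 0.0933 CPM in aEpiLCs and 46.5 CPM in pEpiLCs. The defining signal gene Shh was at or under 0.107 CPM in the mean of each state. Between pEpiLCs and aEpiLCs, Foxa2 and Ntn1 were higher and Lmx1b lower, of 8 tested (median 0.30), against 2.55% and 4.74% of all genes and a median of 0.01. DESeq2 called 1 higher and 1 lower in that comparison. Ntn1, the netrin gene, was at 75.4 ± 94.1 CPM in pEpiLCs, a spread larger than its mean. The counts without pEpiLC replicate 1 were 4 of 8 higher than in EpiLCs, and 2 higher and 1 lower than in aEpiLCs.

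The transporters and the kinase partners were counted in the same way. Of 23 tested Slc35 genes other than Slc35d3, 1 was called higher in aEpiLCs (Slc35f1, 5.54 ± 0.152 to 13.8 ± 1.37 CPM; median 0.17), against 7.25% of all genes. The number called higher was 0 of 22 in pEpiLCs (median 0.31), against 7.71%, and 0 of 23 between pEpiLCs and aEpiLCs (median 0.11), against 2.55%. None was called lower in the 3 comparisons, against 5.24%, 8.13% and 4.74% of all genes. DESeq2 called 2, 1 and 0 higher and none lower, and at an unadjusted p under 0.05 edgeR had 9 higher and 2 lower, 10 and 1, and 7 and 3. The aEpiLC count was 2 without EpiLC replicate 1, 2 or 3 and 3 without aEpiLC replicate 3, and the pEpiLC count was 1 without EpiLC replicate 2 or pEpiLC replicate 2. Of 15 Gadd45 relatives and kinase and cell cycle partners, Gadd45b alone was called in aEpiLCs (log2 difference 1.23 ± 0.25, SE, edgeR adjusted p = 0.00146; median -0.07). At an unadjusted p under 0.05, 5 were higher and 5 lower. That is 1 of 15 called higher and 0 lower, against 7.25% and 5.24% of all genes. In pEpiLCs the call was Cdkn1a, the gene of the cell cycle inhibitor p21, which rose from 36.4 ± 4.68 to 119 ± 17.7 CPM (median -0.09). That is 1 of 15 called higher and 0 lower, against 7.71% and 8.13% of all genes, with 3 higher and 4 lower at an unadjusted p under 0.05. DESeq2 called none lower in either state. Between pEpiLCs and aEpiLCs, Cdkn1a was higher and Gadd45b lower (median 0.06), against 2.55% and 4.74% of all genes. Map3k4, the kinase that Gadd45 proteins activate, was at 116, 111 and 113 CPM in EpiLCs, aEpiLCs and pEpiLCs. Without pEpiLC replicate 1, 1 was higher and 1 lower in pEpiLCs than in EpiLCs, and the calls between pEpiLCs and aEpiLCs numbered 1 without aEpiLC replicate 2 or 3 or pEpiLC replicate 2.

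Gadd45g is known as a gene of neural precursors, so proneural and Notch pathway genes were counted. Of 19 tested, 2 were called higher in aEpiLCs (the Notch modifier gene Lfng, 3.89 ± 0.591 to 13.0 ± 1.36 CPM, and the antiproliferative gene Btg2) and Notch3 lower (410 ± 50.9 to 156 ± 32.0 CPM; median 0.18), against 7.25% and 5.24% of all genes. The number called was 5 without EpiLC replicate 1. In pEpiLCs, Dll3 and Hes1 were called higher and Mfng, Insm1 and Elavl3 lower, of 18 tested (median -0.27), against 7.71% and 8.13% of all genes. Insm1 and Elavl3, genes of early neurons, were at 2.94 ± 0.567 and 13.9 ± 1.53 CPM in EpiLCs and at 0.274 ± 0.0128 and 3.63 ± 1.46 CPM in pEpiLCs. Other neuronal genes moved the other way. Of the 8 neuronal markers, 2 were called higher in pEpiLCs and 0 lower, against 7.71% and 8.13% of all genes. They were Nefm (7.58 ± 0.205 to 39.2 ± 10.7 CPM) and Dcx (0.779 ± 0.102 to 9.92 ± 1.78 CPM). Of the proneural and Notch genes, 1 was higher and 6 lower than in EpiLCs without pEpiLC replicate 1. Between pEpiLCs and aEpiLCs, 2 were higher and 7 lower of 20 (median -0.45), against 2.55% and 4.74% of all genes, and without aEpiLC replicate 1, 2 or 3 the calls numbered 5, 4 and 3.

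Of 12 tested genes of the Btbd series with Lgals3bp, none was called higher in aEpiLCs by edgeR or DESeq2, with 2 higher at an unadjusted p under 0.05, and 2 were called lower (Btbd18 and Lgals3bp; median -0.02), against 7.25% and 5.24% of all genes. In pEpiLCs Btbd1 was called higher (27.7 ± 1.67 to 63.0 ± 3.05 CPM) and Btbd18 lower (1.77 ± 0.267 to 0.210 ± 0.106 CPM; median -0.15), against 7.71% and 8.13% of all genes. Lgals3bp, which is related to Btbd17 in sequence, was at 2.46 ± 0.592, 1.05 ± 0.529 and 1.62 ± 0.974 CPM in EpiLCs, aEpiLCs and pEpiLCs, the opposite direction to Btbd17 in aEpiLCs. None of 11 was called between pEpiLCs and aEpiLCs by edgeR or DESeq2, with 1 at an unadjusted p under 0.05 (median -0.09), against 2.55% of all genes called higher and 4.74% lower. Without pEpiLC replicate 1, 1 was higher and 2 lower in pEpiLCs than in EpiLCs.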

How the data were processed

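The authors sequenced 9 libraries (3 each of EpiLC, aEpiLC and pEpiLC). Per their notes, STAR 2.7.9a and RSEM 1.3.1 were used with GRCm38, and the deposited values are RSEM expected counts per gene symbol, without normalisation. The gene annotation, read cleaning and strandedness are not given in the sources used here. The expected counts were rounded. Each pair of states was fitted on its own 6 libraries with edgeR 4.0.16 (R 4.3.3; TMM, filterByExpr, glmQLFit and glmQLFTest). Calls required p adjusted by Benjamini-Hochberg to be under 0.05, with log2 fold changes of 1 or more in size. CPM were TMM-normalised over 9 libraries, with log2 CPM at a prior count of 2. SE were derived from the F statistics. GENCODE vM21 (GRCm38) gave positions and exon lengths, with 22803 symbols matched to 1 gene. None of the 4 genes overlapped another annotated gene.

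The 4 genes, the 7 pathway and 6 marker lists and the motifs were chosen with earlier results of these data known. Named genes are the 4, list members that were called or describe a list, the 3 genes nearest in profile to each, annotated neighbours, and genes ranked beside them. Ferd3l, Btbd16, Afp, Ttr, Postn and Lum, which the lists also hold, were not among the 23453 symbols counted. Alternatives were RLE size factors, DESeq2 1.42.0, other filters, 9 libraries in 1 fit, a replicate block and leaving out each library. The fit was tested on simulated data. Intervals from counting were not used, and errors are those between libraries.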

Additional observations from a re-analysis of the deposited data

Results flagged for a closer look

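For each of the 4 genes, every aEpiLC library lay above and every pEpiLC library below the EpiLC libraries, so the changes from EpiLC had opposite signs in the 2 states. The log2 fold changes were 2.79 in aEpiLCs and -2.06 in pEpiLCs for Spon1, 3.00 and -1.57 for Btbd17, 0.81 and -3.91 for Slc35d3, and 0.43 and -4.19 for Gadd45g. The difference between the states is the comparison that chose these genes, which were called in it, so its value is a description and no independent test of the difference was made. The aEpiLC values of Slc35d3 and Gadd45g were short of the fold change required for a call.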

How the results depend on the processing

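Each of the 4 genes kept its direction and its call, or lack of one, from EpiLC under all 12 alternatives to each comparison. The share of the rise moved by less than its SD over the 27 combinations in 48 of 48 cases. Those combinations reuse the same 9 libraries, and leaving out 1 library shifts a mean by little, so this is a description and not a test. Over the alternatives the adjusted p in pEpiLCs reached at most 0.0254 (Btbd17). With at least 10 counts required in every library, which tests fewer genes, 488 genes were called lower in aEpiLCs than in EpiLCs (802 otherwise) and 801 lower in pEpiLCs than in EpiLCs (1243 otherwise). Leaving out 1 library at a time gave 180 to 419 genes called higher in pEpiLCs than in aEpiLCs (387 with all libraries) and 334 to 759 called lower (721), the lowest counts being those without aEpiLC replicate 2. The cause was not tested. Counts of called members of the 7 lists moved by over 1.5 times in 34 of 252 cases.

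With the replicate number as a block, 1094 genes were called higher and 784 lower in aEpiLCs than in EpiLCs, 1099 and 1200 in pEpiLCs than in EpiLCs, and 394 and 729 in pEpiLCs than in aEpiLCs. The rise made up 56.7%, 16.7%, 9.45% and 64.2% of the difference for Spon1, Slc35d3, Gadd45g and Btbd17. That the numbers pair the samples was not established: deviations of libraries with the same number correlated at 0.021, -0.057 and -0.060 for aEpiLC with EpiLC, 0.026, 0.034 and 0.015 for pEpiLC with EpiLC, and 0.172, 0.117 and 0.062 for pEpiLC with aEpiLC. As a hint from the data, 2, 5 and 6 of 6 libraries were most alike to their own number.

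The pEpiLC counts of the 4 genes were 19 to 64 per library, and the SE of the falls did not follow them, being 0.20 for Gadd45g, which had the fewest counts, and 0.34 for Spon1.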

Other observations

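None of the 4 genes overlaps another annotated gene, and their nearest neighbours in the table differed in how they moved. Il20ra, a cytokine receptor gene 87.9 kb from Slc35d3 on the opposite strand, was at 0.849 to 1.17 CPM in EpiLCs, at 2.99 to 3.43 CPM in aEpiLCs and at 0 counts in each pEpiLC library. With 3 counts per pEpiLC library as the floor, its mean was at least 7.36-fold higher in EpiLCs and at least 22.6-fold higher in aEpiLCs. It was called higher in aEpiLCs than in EpiLCs, and lower in pEpiLCs than in either. Pex7, a peroxisomal import gene 2.44 kb from Slc35d3 on its other side, was at 28.5 ± 4.64, 29.1 ± 2.64 and 19.2 ± 1.95 CPM in EpiLCs, aEpiLCs and pEpiLCs (SD, n = 3) and was not called. Kif19a, a kinesin gene 0.478 kb from Btbd17 on the opposite strand, was at 0.643, 1.16 and 0.0608 CPM, with 4 counts in all in the 3 pEpiLC libraries. It was called lower in pEpiLCs than in EpiLCs and in aEpiLCs, and was not called between aEpiLCs and EpiLCs. Strandedness is not stated, so reads near the ends of such close genes cannot be assigned with certainty. Far1 and Rras2 beside Spon1 and Sema4d beside Gadd45g were not called in any comparison. Gpr142 beside Btbd17 and 4921525O09Rik beside Gadd45g had means of 0.302 CPM or less in each state and were not tested.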
